A study of Homo sapiens with 16 samples.

Results

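The AP-1 and early growth response genes described here are FOS, FOSL1, FOSL2, JUN, JUNB, JUND, ATF3, EGR1, EGR2 and EGR3, 10 of 19974 protein-coding genes. They were chosen by name. Their open chromatin was taken as every peak overlapping the hg38 span of a gene extended by 10 kb on each side, which gave 50 peaks with vehicle, 57 with belinostat, 53 with AsiDNA and 53 with the combination. These were drawn from 130318, 138937, 138273 and 134865 peaks in the same order. Merging peaks that overlapped by at least 1 bp turned them into 64 regions, of 183659 in the series.

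The 16 libraries came from U87, an established human glioblastoma line, and were made by NicE-seq. In this assay open DNA is nicked enzymatically in fixed nuclei and filled in with biotinylated bases for capture. The question of the series is how chromatin accessibility responds to the 2 drugs. AsiDNA is a short double-stranded DNA that imitates a broken end and occupies repair proteins, and belinostat inhibits histone deacetylases. There are 4 groups of 4 libraries, named vehicle (Control_DMSO), belinostat (Control_Bel), AsiDNA (Asi_DMSO) and combination (Asi_Bel) below. Belinostat was given at 1 µM for 24 h, and the groups without it have DMSO in their names. The labels give no dose or time for AsiDNA, and the protocols name MTU87 and LTAU87 cells although the samples are labelled U87. Hence the exposure behind the AsiDNA groups is not known here. All samples are labelled with the same line and were fixed in the same way, and whether they are sublines is not known.

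Each group has 1 deposited peak list, so no spread between libraries can be given and no test was made. All values below are descriptions of 4 lists. Read depth is unknown. Rank means the percentile of the authors' fold enrichment of a peak within its own list, where 100 is the strongest peak, and a region takes the rank of its strongest peak. A rank change is a difference in percentile points. Belinostat can be read on both backgrounds, as belinostat against vehicle and as the combination against AsiDNA, which use different lists. A region or gene was called higher or lower when its rank changed by at least 10 points the same way on both, and wider or narrower when its summed peak width changed 1.2-fold the same way on both. In every list 8 of 8 markers of mesenchymal glioma lines had a peak within 1000 bp of a gene end, against 64.1% of all protein-coding genes. Such peaks are common, so their presence does not by itself identify a line. CDKN2A and CDKN2B, known to be deleted in U87, had 0 of 2. Of markers of other cells, 2 of 4 neuronal (SNAP25, SYT1) and 2 of 4 immune genes (CSF1R, CD3E) also had such a peak in every list, while RBFOX3, MBP, MOG, PTPRC and AIF1 had none in any.

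AP-1 is a dimeric transcription factor built from FOS proteins (FOS, FOSL1, FOSL2), JUN proteins (JUN, JUNB, JUND) and relatives such as ATF3. EGR1, EGR2 and EGR3 are zinc finger factors that bind GC-rich sites. Most of these genes are immediate early genes, switched on within minutes by growth factor and stress kinases through serum response factor bound to CArG boxes and through CREB and ATF proteins bound to cyclic AMP response elements (CRE). In glioblastoma, AP-1 activity is associated with the mesenchymal state and FOSL1 is among its known drivers.

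Start sequences are shown for EGR1, FOS, JUND, JUN and FOSL2, each of which had a listed start under a peak of every list. Of these, the start regions of JUND and FOSL2 were called higher with belinostat, and those of EGR1, FOS and JUN were not. Elements farther from the start than 250 bases were not searched. RefSeq (GRCh38.p14) start sequences matched 8 of the 10 genes, with 11 listed starts, and held none for FOSL1 or EGR3. Each line below gives the 250 bases before the start, in the direction of transcription, at chr5:138465229-138465478 (plus strand) for EGR1, chr14:75278578-75278827 (plus) for FOS, chr19:18281623-18281872 (minus) for JUND, chr1:58784048-58784297 (minus) for JUN and chr2:28392608-28392857 (plus) for FOSL2. Capitals mark CRE cores, CArG boxes, the JUN-type site, the EGR site and TATA boxes.
EGR1: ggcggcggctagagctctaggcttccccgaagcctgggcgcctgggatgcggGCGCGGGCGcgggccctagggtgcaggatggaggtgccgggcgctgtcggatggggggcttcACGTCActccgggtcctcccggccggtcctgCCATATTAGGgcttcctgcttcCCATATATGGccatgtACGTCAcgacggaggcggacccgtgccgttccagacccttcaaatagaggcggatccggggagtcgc
FOS: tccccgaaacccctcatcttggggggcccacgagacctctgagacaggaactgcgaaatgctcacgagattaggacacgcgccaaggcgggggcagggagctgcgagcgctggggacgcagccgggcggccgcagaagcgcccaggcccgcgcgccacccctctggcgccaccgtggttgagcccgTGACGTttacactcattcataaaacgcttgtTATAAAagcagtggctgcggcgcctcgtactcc
JUND: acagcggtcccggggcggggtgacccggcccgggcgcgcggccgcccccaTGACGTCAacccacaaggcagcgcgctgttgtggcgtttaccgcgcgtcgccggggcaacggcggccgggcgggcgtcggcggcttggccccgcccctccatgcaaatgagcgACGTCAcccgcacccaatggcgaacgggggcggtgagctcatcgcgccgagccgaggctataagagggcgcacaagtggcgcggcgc
JUN: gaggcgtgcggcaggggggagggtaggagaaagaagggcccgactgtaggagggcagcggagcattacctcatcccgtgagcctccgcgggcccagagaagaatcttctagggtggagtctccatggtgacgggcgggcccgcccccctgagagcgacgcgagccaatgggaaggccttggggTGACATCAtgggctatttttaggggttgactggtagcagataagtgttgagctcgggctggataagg
FOSL2: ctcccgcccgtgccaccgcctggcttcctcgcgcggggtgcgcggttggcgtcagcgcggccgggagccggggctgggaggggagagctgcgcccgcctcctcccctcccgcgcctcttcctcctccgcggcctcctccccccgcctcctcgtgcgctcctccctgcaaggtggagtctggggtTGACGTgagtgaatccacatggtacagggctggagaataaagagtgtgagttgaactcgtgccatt

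Motifs were searched on both strands in these 250 bases, and shares of all 35116 listed starts are given beside the counts for the 7 starts that lay under a peak of every list (1 each for FOS, FOSL2, JUN, JUNB, JUND, EGR1 and EGR2). The CRE core TGACGT was in 5 of 7 (FOS, FOSL2, JUND, EGR1, EGR2), against 7.10% of all starts. The shares cover all listed starts, whether under a peak or not, and the core contains a CpG. The 7 starts held 14 (JUN) to 40 (JUND) CpG sites, against a median of 11 over all starts. The core was added after the sequences had been seen, as was the JUN-type site TGACATCA. That site was in 1 of 7 (JUN, from -67 to -60 relative to the start) against 2.37%. The full CRE, TGACGTCA, which contains the core, was in JUND alone (1 of 7, 1.65% of all starts), at -200 to -193. EGR1 held 2 CArG boxes, CCATATTAGG at -105 to -96 and CCATATATGG at -83 to -74, the second of which stood in the same letters at -71 to -62 of an internal EGR2 start. CArG boxes were thus in 2 of 7 starts and in 1.16% of all.

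A TATA box (TATAAA) was in FOS and JUNB, 2 of 7 against 10.7%, and a CCAAT box (CCAAT) in JUN, JUNB and JUND, 3 of 7 against 32.0%. The GC box GGGCGG was in 4 of 7 against 42.6%. The EGR site GCGNGGGCG was in 1 of 7, EGR1 itself, against 8.41%. The AP-1 site TGANTCA was in 0 of 7 against 6.57%. A match is a run of letters, and no binding was measured. The enzyme used to make the libraries nicks at CCA, CCG or CCT, and the 7 starts held 29 (FOS) to 45 (EGR1) such sites against a median of 32 over all starts, with 6 of 7 above that median.

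Nearly all of these genes were open at their start in every condition. FOS, FOSL2, JUN, JUNB, JUND and EGR1 had a peak of every list over their listed start, EGR2 had 1 over an internal start, and FOSL1 and EGR3, both transcribed towards lower coordinates, had 1 over their higher end. ATF3 was the exception by the listed starts, with 2 of them and no peak over either in any list. The start table may not hold every ATF3 start, and an open region deep inside the gene is described below. Within 1000 bp of a gene end, 8 of 10 had a peak in every list, against 64.1% of all protein-coding genes. Those 2 without were ATF3, with no such peak in any list, and EGR2, with 1 weak peak in the vehicle and combination lists only.

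Belinostat went with a higher rank at the starts of FOSL1, FOSL2, JUNB, JUND and EGR3, 5 of the 9 start regions, and with a lower rank at 0 of 9. Over all 10672 regions that held a listed start and a peak of every list, 19.1% were called higher and 3.99% lower by the same rule. FOSL1 and EGR3 have no listed start and so lie outside that set. Of the 7 members within it, 3 were called higher (FOSL2, JUNB, JUND) and 0 lower, with median changes of 10.2 and 10.7 points. The median change over the 9 regions was 13.6 points without and 14.4 points with AsiDNA, against 5.95 and 4.52 over all start regions, so starts in general stood somewhat higher in the belinostat lists. After subtraction of those general medians, 3 of 9 passed (FOSL1, FOSL2, EGR3), of which FOSL2 is the 1 of 7 with a listed start, against 9.23% of all. With all lists cut to the same length, the count was again 3 of 9 (FOSL1, FOSL2, EGR3) and 1 of 7, against 18.9%. When peaks were ranked by their −log10 q-value, 2 of 9 passed (FOSL1, JUNB) and 1 of 7 (JUNB), against 12.8%. FOSL1 was called under each of these settings.

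FOSL1 (chr11:65892049-65900545) encodes FRA-1, the FOS relative tied to mesenchymal glioma. Its start region at chr11:65900209-65900856 stood at percentile 25.8 with vehicle, 54.8 with belinostat, 31.2 with AsiDNA and 54.1 with the combination. Its fold enrichments were 4.23, 6.58, 4.58 and 6.73 in the same order. Both belinostat lists were thus above both lists without it, by 29.0 points without and 22.9 points with AsiDNA. Its widths were 524, 622, 631 and 617 bp and passed no rule.

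FOSL2 (chr2:28392858-28417317) encodes FRA-2. Its start region, chr2:28392078-28393456, which the divergent FOSL2-AS1 shares, stood at percentile 51.1 with vehicle, 76.6 with belinostat, 48.9 with AsiDNA and 69.1 with the combination. The changes were 25.5 and 20.2 points. Here the rank was higher while the peak was narrower, at 1228 bp with vehicle, 788 bp with belinostat, 1261 bp with AsiDNA and 737 bp with the combination. These are 0.64 and 0.58 times the width without belinostat. FOSL2 was the 1 of 9 start regions (1 of 7 with a listed start) called narrower, against 13.4% of all start regions, and 0 of 9 were called wider, against 2.16%. In both belinostat lists a separate weak peak of 286 and 219 bp lay just upstream, at chr2:28391648-28391940.

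Among the JUN genes, JUND (chr19:18279694-18281622), the most steadily expressed of them in many tissues, had the highest start ranks. Its region, chr19:18281149-18282377, stood at percentile 69.1 with vehicle, 79.3 with belinostat, 63.6 with AsiDNA and 78.0 with the combination, changes of 10.2 and 14.4 points. JUNB (chr19:12791486-12793315), often an antagonist of JUN, had the lowest, at 19.9, 33.5, 20.2 and 30.9 in the same order, changes of 13.6 and 10.7 points at chr19:12791188-12791741, which also lies at the HOOK2 gene. Both lie close to the 10-point limit: JUND was not called under any of the 3 other settings above, and JUNB only when ranked by −log10 q.

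JUN (chr1:58780791-58784047), the main partner of FOS, lay just outside the limit. Its start region, chr1:58783851-58785608, shared with the divergent transcript JUN-DT, stood at percentile 63.6 with vehicle, 71.3 with belinostat, 53.3 with AsiDNA and 68.3 with the combination. The changes were 7.7 and 15.0 points. The widths of its peaks together were 1443, 1323, 1515 and 1177 bp, and vehicle had them as 1 peak where the other lists had 2.

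Of the early growth response genes, EGR3 (chr8:22687659-22693480) was called and EGR1 and EGR2 were not. The EGR3 start region, chr8:22693384-22693807, stood at percentile 28.3 with vehicle, 47.2 with belinostat, 24.4 with AsiDNA and 39.0 with the combination, changes of 18.9 and 14.6 points. It is among the narrowest here, at 349 to 385 bp. A broad second region next to it, 1685 to 1793 bp wide in the lists and nearest LOC105379321, did not share this pattern, with 43.5, 38.5, 48.1 and 42.4.

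EGR1 (chr5:138465479-138469303), the best known immediate early zinc finger gene, had the broadest start region. Its peak at chr5:138463852-138465756 was 1883, 1847, 1886 and 1901 bp wide in the order vehicle, belinostat, AsiDNA, combination, and lay almost wholly upstream of the start, over both CArG boxes printed above. Its rank was 24.8 with vehicle and higher in all treated lists, at 45.5 with belinostat, 41.1 with AsiDNA and 39.8 with the combination. The change with belinostat was 20.7 points without AsiDNA and -1.3 points with it, so the both-background rule was not met. The difference between these changes was not tested.

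FOS and EGR2 were not called either. FOS (chr14:75278828-75282230) stood at percentile 36.0 with vehicle, 35.8 with belinostat, 47.3 with AsiDNA and 35.9 with the combination, at chr14:75278239-75279157. The AsiDNA list alone was higher. EGR2 (chr10:62811996-62819167), known for its part in myelination, stood at 76.9, 74.4, 70.8 and 74.5 over its internal start at chr10:62816201-62817347, a narrow range among high ranks.

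**Figure D1:**
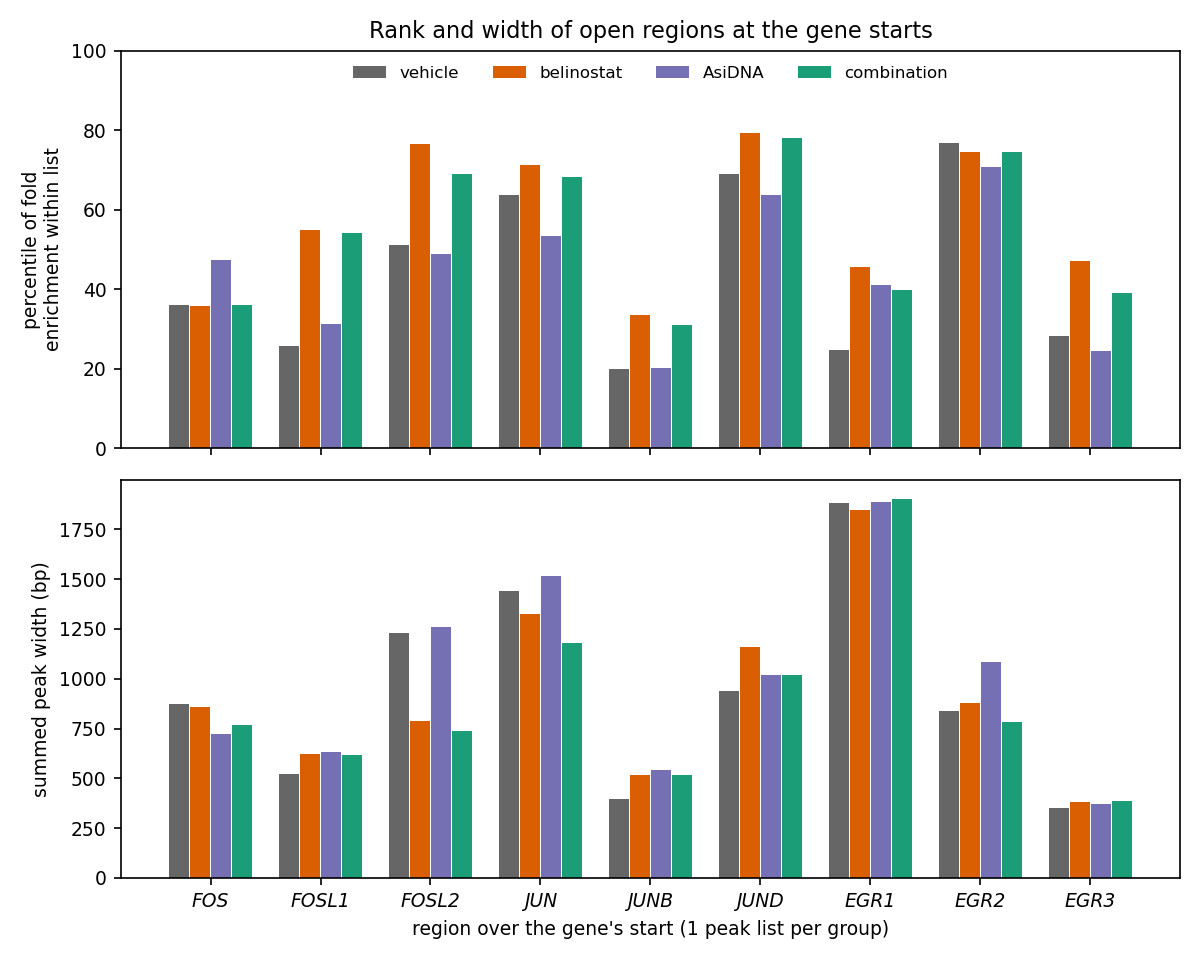
Rank (upper panel, percentile of fold enrichment within the list) and summed peak width (lower panel, bp) of the 9 regions over gene starts, 1 bar per group from its 1 peak list, so there are no error bars. At FOSL1, FOSL2, JUNB, JUND and EGR3 both belinostat bars stand at least 10 points above their counterparts, while only FOSL2 is also narrower, at 788 and 737 bp against 1228 and 1261 bp.

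At whole gene ends, counting the strongest peak within 1000 bp of either end, 4 of the 8 genes open in every list were higher with belinostat on both backgrounds (FOSL1, FOSL2, JUNB, JUND), against 18.5% of 12806 genes, and 0 of 8 were lower, against 3.75%. The median changes were 15.45 and 13.61 points, against 5.87 and 4.39 for all such genes. Less those medians, 2 of 8 passed (FOSL1, FOSL2; 8.96% of all), and ranked by −log10 q-value 1 of 8 did (FOSL1; 12.4%). Here JUNB changed by 27.9 and 12.8 points because its strongest end peak with vehicle was the start peak, while in the other lists it was a peak on the HOOK2 side whose border came within 1000 bp. As a region of its own that HOOK2-side peak, chr19:12789769-12790521, stood at 39.9, 47.7, 34.3 and 47.1. EGR3 was not called at its ends, since the broad region beside its start stood above the start in 3 lists.

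In summed width at gene ends, JUN alone was narrower (1 of 8, against 14.7%), from 2031 to 1379 bp without AsiDNA and from 2104 to 1398 bp with it. None of the 8 was wider, against 3.52%. This too rests on a border: the second peak of the JUN start region begins at 58785080 in the belinostat list and at 58785079 in the combination list, just past 1000 bp from the gene, and so drops out of the sum. The JUN start region as a whole was not called narrower. With a 500 bp limit FOSL2 alone was narrower and with a 2000 bp limit no gene was, while with lists of equal length FOSL2 was narrower beside JUN.

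Beyond the starts, the regions that every list held can be followed one by one. There were 42, and 11 of them (26.2%) were higher with belinostat on both backgrounds, in the windows of 7 genes, against 16.7% of all regions held by every list. Of these 11, 5 lay at a gene end, 2 inside a gene and 4 in a flank. There were 3 lower (7.14%, against 13.7%), all inside ATF3. The median change was 7.3 and 5.13 points over the 42 regions, against 2.12 and 0.57 over all.

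**Figure D2:**
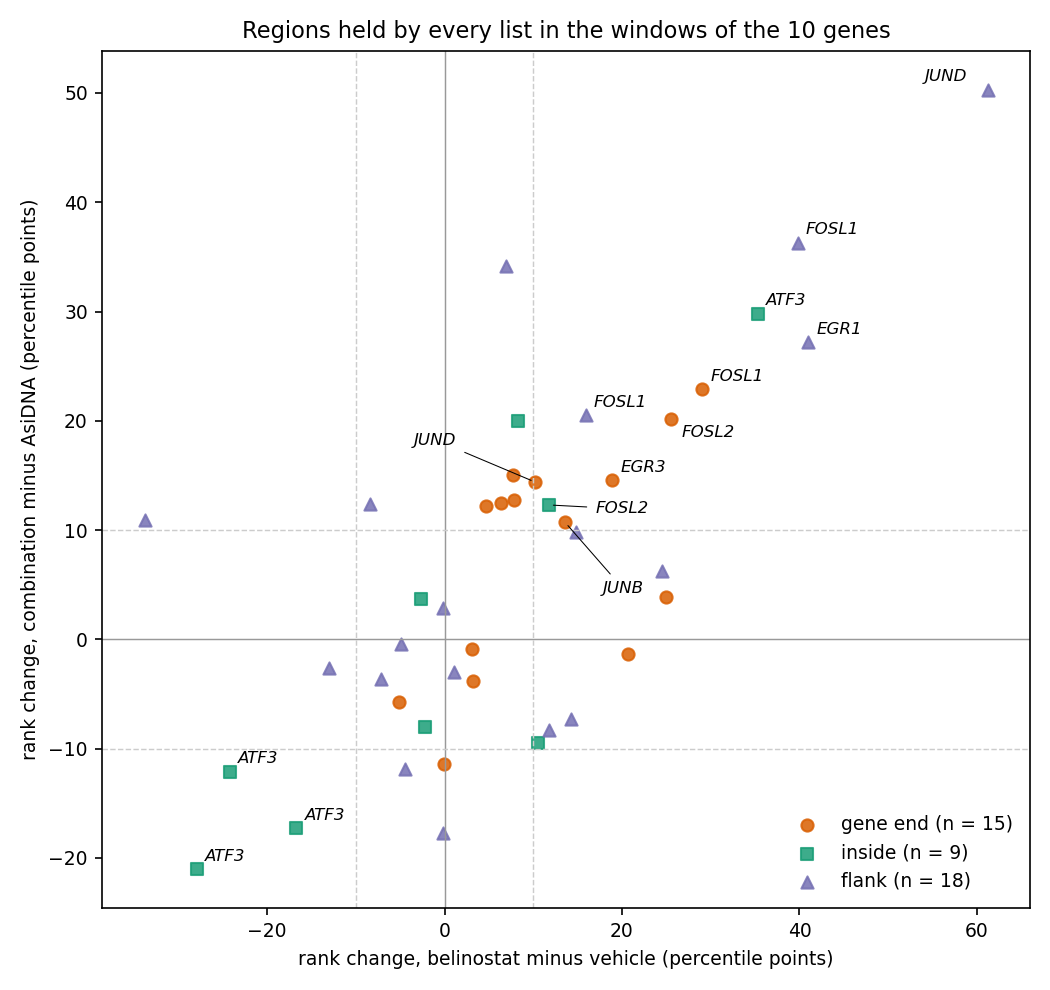
Rank change with belinostat without AsiDNA (x axis) and with AsiDNA (y axis), in percentile points, for the 42 regions held by every list; each point is 1 region, its shape gives its place, and dashed lines mark 10 points. Labelled are the 11 regions past both upper limits and the 3 ATF3 regions past both lower limits.

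The region with the largest changes lay in the JUND window near LOC124904653, at chr19:18290419-18290922. It stood at percentile 7.6 with vehicle, 68.8 with belinostat, 0.6 with AsiDNA and 50.9 with the combination, with widths of 400, 455, 391 and 484 bp. It was thus among the weakest peaks of both lists without belinostat and in the upper part of both lists with it, 61.2 and 50.3 points higher.

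At FOSL1, 2 flanking regions were called higher along with the start. That near CCDC85B, chr11:65890293-65891034, stood at 31.6 with vehicle, 71.4 with belinostat, 35.5 with AsiDNA and 71.8 with the combination, changes of 39.8 and 36.3 points. That upstream of the start, chr11:65902953-65903603, stood at 40.6, 56.5, 42.2 and 62.7, changes of 15.9 and 20.5 points. Another region, by FIBP at chr11:65887868-65889709, was narrower, from 1722 to 851 bp and from 1823 to 831 bp (0.49 and 0.46 times), with rank changes of 14.8 and 9.8 points. The windows of FOSL1 and its neighbours overlap, so these regions cannot be assigned to 1 gene.

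EGR1 had a flanking region 4.0 kb before its lower end, chr5:138461273-138461735, that stood at 16.8 with vehicle, 57.8 with belinostat, 23.1 with AsiDNA and 50.2 with the combination. Unlike its start, this region was higher on both backgrounds, by 41.0 and 27.2 points. Inside FOSL2, chr2:28408851-28409734 stood at 64.4, 76.2, 56.9 and 69.2, changes of 11.8 and 12.3 points. A second region inside FOSL2, chr2:28406542-28407163, was not called, with 63.9, 74.4, 76.6 and 67.1.

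ATF3 is the stress-response member of the family. Its gene of 55371 bp (chr1:212565407-212620777) is the longest of the 10. It held 6 of the 9 regions of every list that lay inside genes, so most chances for a call inside a gene were here. These 6 regions moved in opposite directions. The region 43.1 kb into the gene, chr1:212608008-212608944, stood at percentile 46.7 with vehicle, 82.0 with belinostat, 60.0 with AsiDNA and 89.8 with the combination. Its fold enrichments were 5.50, 10.77, 6.79 and 13.28. The changes with belinostat were 35.3 and 29.8 points. ATF3 is known to be transcribed from a far upstream promoter and from a second one deep within the annotated span, but the start table used lists no start in this region, and whether it is that promoter was not tested.

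Lower with belinostat were 3 other regions inside ATF3. The first, chr1:212566701-212567550, is the open region nearest the upstream start and stood at 88.1 with vehicle, 71.4 with belinostat, 95.5 with AsiDNA and 78.2 with the combination, changes of -16.7 and -17.3 points. It was split into 2 peaks in the belinostat list alone. The second, chr1:212579818-212580385, stood at 86.4, 62.2, 73.6 and 61.5, changes of -24.2 and -12.1 points. The last, chr1:212618698-212619263 near the far end of the gene, stood at 64.2, 36.3, 87 and 66.0, changes of -27.9 and -21.0 points.

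The second and the last were also called narrower. The last measured 566 bp with vehicle, 255 bp with belinostat, 482 bp with AsiDNA and 359 bp with the combination. If gene ends are taken as 2000 bp, the first region counts as an ATF3 gene end, and ATF3 is then 1 gene called lower against 4.15% of genes. The other 2 regions inside ATF3 held by every list were not called and stood between percentiles 61.5 and 89.8 at chr1:212595822-212596737 and chr1:212613458-212613955.

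**Figure D3:**
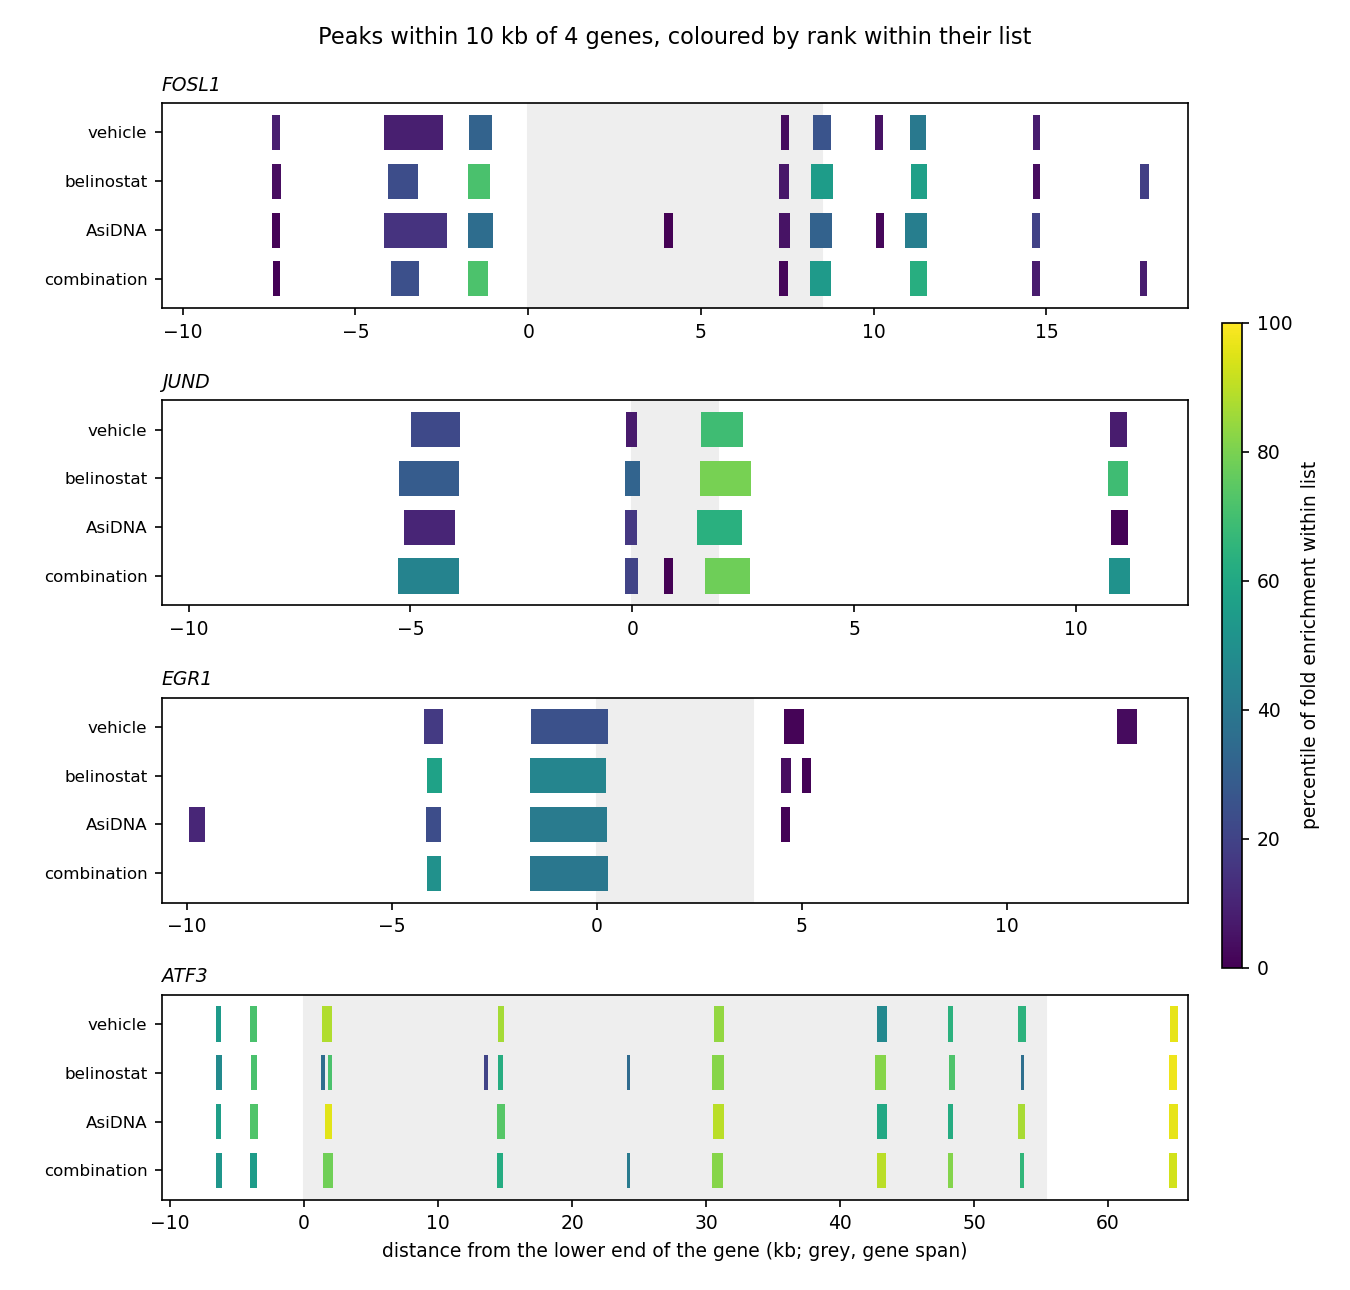
Peaks of the 4 lists in the windows of FOSL1, JUND, EGR1 and ATF3 by distance from the lower end of the gene (x axis, kb; grey, the gene), 1 row per group; colour is the percentile of fold enrichment within the list. The ATF3 block at 43.1 kb is brighter in both belinostat rows, at 82.0 and 89.8 against 46.7 and 60.0, and the flanking JUND block at 11.0 kb shows the largest change.

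In width, 2 of the 42 regions were wider with belinostat on both backgrounds (4.76%, against 7.80%; 1 with stricter lists and 1 with lists of equal length) and 4 narrower (9.52%, against 9.60%), shares below and near those of all regions. The wider ones were a region 1.5 kb before the FOS start, chr14:75276818-75277930, with 607, 970, 814 and 1087 bp, and a weak one near PRDX2 in the JUNB window. In the FOS region the AsiDNA width of 814 bp is the sum of 2 peaks with a gap between them, of 559 and 255 bp. Each other list had 1 peak there. Narrower were the FOSL2 start, the FIBP region and 2 inside ATF3.

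Most regions were held by every list, and the rest were missing from at least 1. A peak of every list lay in 42 of the 64 regions (65.6%, against 51.4% of all regions of the series, near genes or not). By place, these were 15 of 19 at gene ends, 9 of 14 inside genes and 18 of 31 in flanks. Both belinostat lists and neither other held 5 regions (7.81%, against 6.09%), and both lists without belinostat alone held 2 (3.12%, against 5.04%). No region was held by the AsiDNA lists alone, against 1.23%, or by the lists without AsiDNA alone, against 0.890%.

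The 5 belinostat-only regions were weak. The strongest, inside ATF3 at chr1:212589518-212589768, stood at percentile 34.7 with belinostat and 41.2 with the combination. There were 2 beyond the FOS gene, 5.3 and 7.6 kb from its start, with 17.7 and 17.1 for the nearer and 2.0 and 14.7 for the farther. The others lay at the far edge of the FOSL1 window, at 18.5 and 8.0, and beside the FOSL2 start. Lost with belinostat on both backgrounds were a JUN flank, chr1:58773392-58773839, at 31.7 with vehicle and 35.1 with AsiDNA, and a FOSL1 flank at 4.7 and 1.8.

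Of the belinostat peaks in the windows, 10 of 57 (17.5%) had no vehicle counterpart, against 23.9% in the series, and 6 of 50 vehicle peaks (12.0%) had no belinostat counterpart, against 19.0%. With AsiDNA present, 9 of 53 combination peaks (17.0%) were gained, against 18.4%, and 8 of 53 AsiDNA peaks (15.1%) lost, against 20.9%. AsiDNA against vehicle gained 4 of 53 (7.55%, against 17.6%) and lost 2 of 50 (4.00%, against 12.1%). The combination against belinostat gained 5 of 53 (9.43%, against 12.5%) and lost 8 of 57 (14.0%, against 15.1%). All of these shares were below those of the series, some only slightly, and the series shares cover all peaks, near genes or not. Comparisons here share lists, and these counts turn on weak peaks: with lists of equal length 5 were gained and 14 lost for belinostat against vehicle, the reverse order.

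The amount of open chromatin was similar over all windows but varied for single genes. Together the windows held 31670 bp of peaks with vehicle, 31321 bp with belinostat, 32635 bp with AsiDNA and 30549 bp with the combination. FOSL1 peaks covered 15.1% of its window with vehicle, 12.5% with belinostat, 18.0% with AsiDNA and 12.1% with the combination, and JUNB peaks covered 14.2 to 15.6%. ATF3, with the longest window (75371 bp), had the lowest cover in each list, at 6.79 to 7.18%. Among genes this cover still stood at percentiles 79.0 to 83.4. The strongest peak of all windows lay in the ATF3 flank, chr1:212629957-212630665 near LINC02773, at percentiles 96.2, 97.3, 96.3 and 93.3. EGR1 cover was 13.9% with vehicle, 11.3% with belinostat, 12.0% with AsiDNA and 9.39% with the combination. JUN cover was 10.0, 7.92, 10.7 and 7.46% in the same order, lower in both belinostat lists. FOS cover was 7.16, 11.7, 9.49 and 10.2%, from 3 peaks with vehicle to 6 with belinostat.

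The genes whose windows were covered most alike over the 4 lists were ZBTB7B for FOS (mean difference 0.25 points of window), CCDC85B, a neighbour, for FOSL1 (0.64), DNPEP for FOSL2 (0.071) and H4C6 for JUN (0.24). They were LIN37 for JUNB (0.11), ZC3H12A for JUND (0.34), TMEM231 for ATF3 (0.048), MRPL10 for EGR1 (0.44), TUBB2A for EGR2 (0.11) and ACTG1 for EGR3 (0.22). This likeness rests on 4 values per gene, and no member was the nearest of another.

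Few of these regions, as of all regions in the series, changed rank with AsiDNA the same way without and with belinostat. Of the 42, 1 was higher (2.38%, against 3.41%) and 0 were lower, against 2.86%. The 1 was the last of the lower ATF3 regions above, chr1:212618698-212619263, where AsiDNA went with 22.7 points more without and 29.7 points more with belinostat. At gene ends 0 of 8 genes were higher, against 1.68%, and 0 lower, against 0.992%.

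Other genes of the pathway were read at their gene ends from 4 lists of 70 genes in all, 66 of which had an end peak in every list, and 23 were higher with belinostat on both backgrounds and 0 lower. The list of relatives had 4 of 13 higher. FOSB, the remaining FOS gene, changed by 19.0 and 21.0 points, BATF2, an AP-1 type repressor, by 30.3 and 29.5, MAFF, a small MAF protein, by 26.5 and 17.6, and NAB1, a corepressor of EGR proteins, by 24.4 and 12.8. EGR4 had no end peak with vehicle and 1 in each other list.

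Of upstream factors 4 of 13 were higher, including MRTFB, a coactivator of serum response factor (26.9 and 22.8 points), MAPK14, the p38 kinase (17.9 and 25.2), and ELK4, a partner of serum response factor (13.5 and 28.2). Serum response factor itself, SRF, was not called, with differences of 7.2 and -0.7 points. Other immediate early genes had 10 of 23 higher. Among them DUSP5, a phosphatase that restrains ERK, changed by 62.9 and 58.8 points, GADD45B, a stress protein, by 37.7 and 35.1, DUSP1, a phosphatase of p38 and JNK, by 30.2 and 34.2, and IER5 by 22.3 and 23.5.

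Known AP-1 or EGR targets had 5 of 17 higher. These included VEGFA, the angiogenic growth factor (36.0 and 26.8 points), MMP9, a matrix protease (21.2 and 23.3), and CD44, a mesenchymal surface protein (16.1 and 14.0). MMP1, a classical AP-1 target, was not called in rank with belinostat, with differences of 0.2 and -1.3 points. It was called wider with belinostat, at 1.25 and 1.26 times. With AsiDNA it was called higher, by 14.3 points without and 12.8 points with belinostat. These counts stand beside the 18.5% of all genes called higher and 3.75% called lower, and the lists were chosen with results of these data known.

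**Figure D4:**
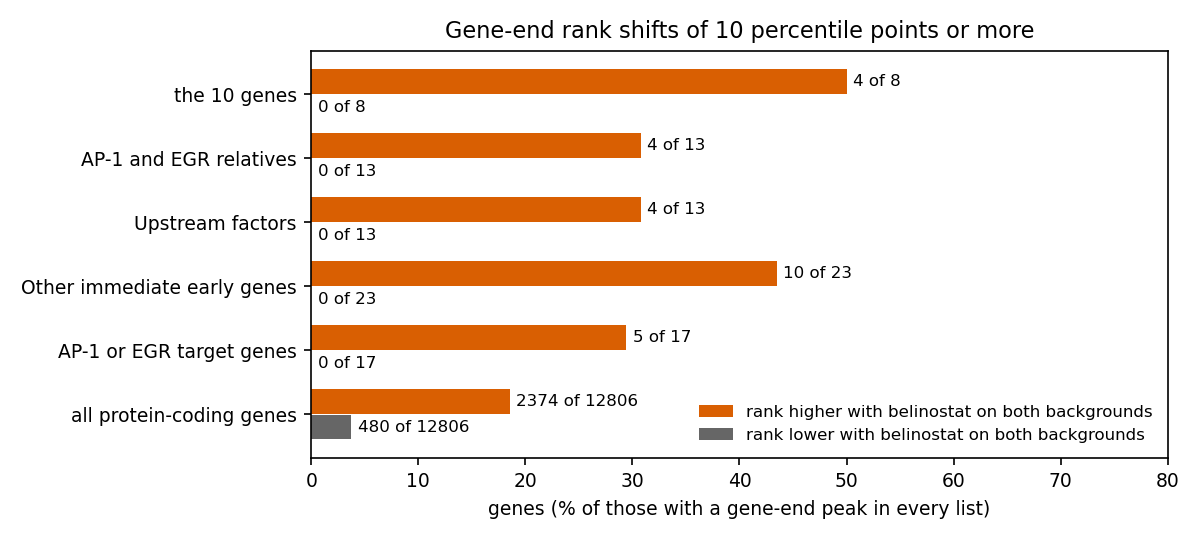
Share of genes (x axis, % of those with a gene-end peak in every list) called higher (orange) or lower (grey) in rank with belinostat on both backgrounds, for the 10 genes, the 4 pathway lists and all protein-coding genes; counts stand beside the bars. Higher were 5 of 17 targets, 4 of 13 relatives, 4 of 13 upstream factors and 10 of 23 other immediate early genes, with 0 lower in each list, beside 2374 and 480 of 12806 for all genes.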

How the data were processed

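NicE-seq libraries from 16 samples were grouped by the treatment field of the labels, 4 per group. The submitters' processing notes name MACS2, Bowtie2, Trim Galore 0.5.0, Picard, deepTools, SAMtools and the hg38 build. Tool roles, input controls and pooling of libraries are not given. The deposited peak lists, 1 per group, give fold enrichment as a ratio over local background, q-values on the −log10 scale (lowest 1.3), and a score that was not used. They are not scaled across lists: ranks within a list were compared, and fold enrichments are printed as description only.

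Peaks on chromosomes 1 to 22 and X were merged across lists by 1 bp overlap. Gene spans and starts came from RefSeq (GRCh38.p14), and positions are 1-based. Genes were named by a fixed rule: all 10 members, regions past a limit in both belinostat comparisons, and up to 4 genes per pathway list with the largest smaller change, a few of which are not reported here. SRF, EGR4, MMP1 and regions that were not called were named after their values were seen. Members and lists were chosen with earlier results of these data known. The functions were tested on simulated data. Alternatives were stricter or equal-length lists, summit matching, other windows and limits, and, added later, ranking by −log10 q and centring. Signal tracks were not used. Software was matplotlib 3.10.9, pandas 2.3.3, numpy 2.4.6 and Python 3.11.15.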

Additional observations from a re-analysis of the deposited data

Results flagged for a closer look

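In the EGR2 window, the region nearest ADO changed in opposite directions with belinostat, by -33.8 points without AsiDNA and 10.9 points with it, a difference of 44.7 points. In the JUND window, the region nearest IQCN did so with AsiDNA, by -11.4 points without belinostat and 15.8 points with it, a difference of 27.2 points. With 1 list per group neither difference was tested.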

How the results depend on the processing

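Of 137 values recomputed under an alternative, 88 were within 1.5 times the value reported and 49 moved; the cause was not tested. With 20 kb windows there were 85, 95, 90 and 91 peaks (vehicle, belinostat, AsiDNA, combination), 103 regions, 73 of them in every list, and 8 peaks gained by the combination over belinostat. Of those 73, 25 were higher with belinostat, against 16.7% of all regions held by every list, and 7 narrower, against 9.60%. Wider regions were 1 at −log10 q of 5 or more and 1 with lists of equal length. With a 500 bp gene-end limit 1 gene was narrower, FOSL2 in place of JUN. Gained and lost peaks were the least stable. For belinostat over vehicle they were 6 and 3 at −log10 q of 5 or more, 5 and 14 with lists of equal length, 17 and 10 by summits within 250 bp, and 6 and 3 with 5 kb windows. For AsiDNA over vehicle they were 2 and 4, 2 and 11, 8 and 5, and 2 and 1 under the same settings. Peaks lost in the combination over AsiDNA were 4 with the stricter lists, 4 with equal lengths and 4 with 5 kb windows. Over belinostat the combination lost 4, 2, 13 and 4 under those settings and gained 9 with equal lengths and 9 by summits. Regions in both belinostat lists only were 3 with equal lengths, and those in both lists without belinostat only were 4 by summits and 1 with 5 kb windows. At gene ends 2 genes were narrower with equal lengths, 0 with a 2000 bp limit and 0 with a 1.5-fold limit, and the 2000 bp limit made 1 gene wider (FOS) and 1 lower (ATF3). Higher gene ends were 1 when ranked by −log10 q and 2 after centring, and higher start regions 2 and 3, and 3 with equal lengths. No paired analysis was possible because each group has 1 list. Depth is unknown, and its part in peaks missing from a list was not tested.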

Other observations

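Some genes of the pathway lists stood out outside the belinostat rule; they were picked after their values were seen. MAPK3, the ERK1 kinase, had its strongest gene-end peak at percentile 40.5 with vehicle and at 97.0 with belinostat, 98.0 with AsiDNA and 94.8 with the combination. However, it had 2 end peaks with vehicle, 3 with belinostat, 4 with AsiDNA and 3 with the combination. Whether the strongest was the same peak in each list was not tested. NR4A1, an immediate early nuclear receptor, stood at 25.1 with vehicle and at 7.8, 11.8 and 8.5 in the same order. With belinostat it changed by -17.3 points without and -3.3 points with AsiDNA, so it was not called lower. NR4A2 and NR4A3 were both called higher with belinostat (15.1 and 19.8 points, and 19.5 and 15.4 points). SGK1, a stress-induced kinase, was higher with AsiDNA by 19.2 points without and 34 points with belinostat.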
